A study of Homo sapiens with 6 samples.

Results

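The genes described here are 38 genes of cholesterol and fatty acid synthesis and of its control by sterol regulatory element-binding proteins (SREBPs). They were taken by symbol from a list of pathway genes, chosen with earlier results of these data known. All 38 were among the 15651 genes of the expression table and all 38 were among the 15246 genes tested. They were 18 genes of the sterol branch, 6 regulators and 14 genes of the fatty acid branch. RNA sequencing had been done on 6 libraries of MDA-MB-231, a human triple-negative breast cancer cell line, 3 from cells given DMSO (the solvent) and 3 from cells given BRL-50481, an inhibitor of the cyclic AMP phosphodiesterase PDE7. The treatment text of the labels gives 50 µM BRL-50481 for 72 h, whereas the treatment tag of the treated samples gives 5 µM and 48 h. The description of the experiment in the study has the dose and time of the treatment text. No genetic change separates the groups, all 6 libraries come from 1 cell line with no allele or transgene named, and no second dose, time or inhibitor was analysed here. The study calls its replicates biological, while the labels only number them and do not describe the cultures, and p-values measure the spread between these libraries.

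Cholesterol is built from acetyl-CoA through mevalonate, isopentenyl diphosphate, farnesyl diphosphate, squalene and lanosterol. Long-chain fatty acids are built from the same acetyl-CoA by carboxylation to malonyl-CoA and repeated condensation, then elongated, desaturated and activated as CoA esters. SREBPs are membrane-bound transcription factors of the endoplasmic reticulum that SCAP carries to the Golgi for cleavage when sterols are low and that INSIG proteins hold back when sterols are high. SREBP-2, from SREBF2, mainly drives genes of cholesterol synthesis and uptake, and SREBP-1, from SREBF1, mainly drives genes of fatty acid synthesis.

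Each library held 30750573 to 33446984 reads on genes. Between replicates, the chi-square statistic per degree of freedom over genes was 3.99 to 22.1 with DMSO and 2.63 to 3.53 with BRL-50481. The higher DMSO values were those of DMSO 1, which stood apart from DMSO 2 and DMSO 3, and no pair agreed within sampling noise. All 6 markers set for this mesenchymal-like line (VIM, CD44, AXL, CAV1, CAV2 and MSN) were abundant, with 5822 to 88612 normalized counts in every library, and their summed level was 176804 to 179734 with DMSO and 234205 to 236711 with BRL-50481. Of the 7 luminal, epithelial and receptor markers, 6 had values (all but ESR1). PGR was at 0 to 7.75, FOXA1 at 14.5 to 58.5, CDH1 at 31.7 to 105 and GATA3 at 166 to 299 normalized counts. EPCAM (674 to 773) and ERBB2 (1606 to 1979) were more abundant than these in every library of either group. The summed level of these markers was 2603 to 2800 with DMSO and 2958 to 3080 with BRL-50481, but they moved in both directions. By log2 fold change, CDH1 (1.39), GATA3 (0.57) and ERBB2 (0.19) were higher with BRL-50481, and FOXA1 (-1.02) and EPCAM (-0.16) were lower. Each of these passed an adjusted p under 0.05 (limma), and PGR was not tested. Of the 5 markers of blood, liver, fat and endothelial cells only PECAM1 had values (325 to 396 with DMSO and 460 to 537 with BRL-50481 normalized counts), and the other 4 were not analysed here. The part of these markers in the results below was not tested. PDE7A, the gene of the inhibited enzyme, was at 406 ± 2.06 with DMSO and 298 ± 40.6 with BRL-50481 normalized counts (mean ± SD, n = 3).

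Promoter windows are shown for the 3 regulators that rose and for 4 of the 5 sterol enzymes that fell, because these genes carry the opposite movements described below. A window is the 300 bases that run from 250 bases before the RefSeq transcription start through the first 50 bases of the transcript (GRCh38.p14), and 33 of the 38 genes had 1 within 500 bases of the start of their canonical transcript. No entry was found for ACAT2, FDFT1, SQLE and FASN. FADS2 had windows elsewhere only. Capitals mark the sterol regulatory element (the site SREBPs bind, searched with 1 base left free), CCAAT or its complement ATTGG (the site of NF-Y, a factor that works beside SREBPs) and CACGTG (an E-box), each searched on both strands. The windows of the regulators are SREBF1 at chr17:17836937-17837236 on the minus strand, SREBF2 at chr22:41832855-41833154 on the plus strand and STARD4 at chr5:111512486-111512785 on the minus strand.
SREBF1: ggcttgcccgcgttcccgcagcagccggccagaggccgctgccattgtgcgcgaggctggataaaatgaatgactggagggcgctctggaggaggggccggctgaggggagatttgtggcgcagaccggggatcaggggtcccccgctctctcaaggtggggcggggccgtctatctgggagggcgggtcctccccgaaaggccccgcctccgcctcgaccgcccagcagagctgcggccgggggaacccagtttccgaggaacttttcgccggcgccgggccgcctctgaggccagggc
SREBF2: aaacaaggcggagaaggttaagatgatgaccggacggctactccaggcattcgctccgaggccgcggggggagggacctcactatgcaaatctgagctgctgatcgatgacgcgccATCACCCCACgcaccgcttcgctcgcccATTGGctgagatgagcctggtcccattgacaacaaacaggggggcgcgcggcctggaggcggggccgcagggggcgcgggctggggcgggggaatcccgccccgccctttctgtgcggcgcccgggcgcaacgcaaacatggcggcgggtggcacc
STARD4: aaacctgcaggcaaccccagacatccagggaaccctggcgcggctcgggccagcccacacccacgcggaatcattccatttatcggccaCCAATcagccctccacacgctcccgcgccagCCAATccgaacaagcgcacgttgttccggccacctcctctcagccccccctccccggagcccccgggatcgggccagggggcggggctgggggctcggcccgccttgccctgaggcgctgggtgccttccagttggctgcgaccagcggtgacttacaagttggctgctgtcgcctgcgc

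The windows of the sterol enzymes are IDI1 at chr10:1049070-1049369 on the minus strand, NSDHL at chrX:152830813-152831112 on the plus strand, SC5D at chr11:121292521-121292820 on the plus strand and DHCR7 at chr11:71448344-71448643 on the minus strand.
IDI1: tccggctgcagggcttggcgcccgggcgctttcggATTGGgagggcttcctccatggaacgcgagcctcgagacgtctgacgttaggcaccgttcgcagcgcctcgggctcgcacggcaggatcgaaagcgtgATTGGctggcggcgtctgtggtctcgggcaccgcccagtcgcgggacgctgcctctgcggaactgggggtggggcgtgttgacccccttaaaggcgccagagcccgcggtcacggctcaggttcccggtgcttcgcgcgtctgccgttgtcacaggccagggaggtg
NSDHL: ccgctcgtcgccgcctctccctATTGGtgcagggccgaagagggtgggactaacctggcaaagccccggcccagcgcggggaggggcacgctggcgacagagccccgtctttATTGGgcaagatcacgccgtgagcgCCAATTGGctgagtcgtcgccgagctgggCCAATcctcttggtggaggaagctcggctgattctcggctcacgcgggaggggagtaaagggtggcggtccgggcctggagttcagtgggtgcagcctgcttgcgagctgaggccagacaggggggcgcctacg
SC5D: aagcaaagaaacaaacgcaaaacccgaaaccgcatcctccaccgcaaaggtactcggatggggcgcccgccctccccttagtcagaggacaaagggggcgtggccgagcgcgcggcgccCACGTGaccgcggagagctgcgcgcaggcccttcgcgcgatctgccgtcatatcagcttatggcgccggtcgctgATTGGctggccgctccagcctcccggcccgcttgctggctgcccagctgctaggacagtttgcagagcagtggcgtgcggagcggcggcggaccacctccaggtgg
DHCR7: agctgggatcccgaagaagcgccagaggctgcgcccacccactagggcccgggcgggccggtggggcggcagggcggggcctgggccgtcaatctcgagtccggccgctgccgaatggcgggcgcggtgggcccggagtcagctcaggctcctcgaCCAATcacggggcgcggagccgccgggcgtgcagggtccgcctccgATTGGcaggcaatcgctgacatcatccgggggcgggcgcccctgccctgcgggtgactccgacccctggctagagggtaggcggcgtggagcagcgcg

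The sterol regulatory element was found in SREBF2 alone, 1 of 33 windows (3.03%), as ATCACCCCAC at positions -134 to -125 from its start, beside 11 of 10421 windows of all tested genes (0.106%). CCAAT boxes were found in 23 of 33 windows (69.7%), beside 36.8% of all windows. The share was 13 of 15 (86.7%) in the sterol branch, 3 of 6 (50%) among regulators and 7 of 12 (58.3%) in the fatty acid branch. By direction of change it was 6 of 8 genes that rose, 6 of 10 that fell and 11 of 15 that did not pass the test. SREBF1 had no CCAAT box in its window, whereas NSDHL had 5, of which a pair overlapped. CACGTG was found in 5 of 33 windows (15.2%), those of ELOVL5, INSIG1, LSS, SC5D and SCAP, beside 9.86% of all windows. GGGCGG, the core of GC boxes, was found in 31 of 33 windows (93.9%), beside 72.9% of all windows. A match describes the letters of these windows only, and no binding was measured. Sites with other letters than those searched, or outside the windows, would be missed. A window without a match is therefore not shown to lack a site for SREBPs.

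The comparison of BRL-50481 with DMSO asked how these genes responded to the inhibitor. The genes did not move as a block. At an adjusted p under 0.05 (limma on log2(normalized count + 1), Benjamini-Hochberg over all genes tested), 10 of the 38 rose, 12 fell and 16 did not pass. The 22 that passed are 57.9% of the 38, beside 58.7% of all genes tested, with 28.9% of all genes higher and 29.8% lower. All genes tested include genes with few counts, whereas the lowest group mean among the 38 was 245 normalized counts (HSD17B7 with BRL-50481). With a mean of at least 20 required, 4134 of 13268 genes were higher and 4444 lower, and the 38 still gave 10 and 12. Applied to recovered reads, edgeR (28.6% of all genes higher, 30% lower) and DESeq2 (26.9% higher, 28.6% lower) also called 10 of the 38 higher and 12 lower. The split depended on the scaling, with 15 higher and 10 lower after quantile normalization, 14 and 9 after median centring, and 12 and 16 after a trend with transcript length and GC content was removed, a setting chosen after seeing the data. The 3 libraries of each group did not overlap for 27 of the 38 genes (71.1%), beside 64.2% of all genes tested, with 14 higher (beside 31.9%) and 13 lower (beside 32.3%).

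The changes were small. The median log2 fold change of the 38 was -0.016, beside 0.015 over all genes tested, and the median absolute log2 fold change was 0.18, beside 0.33. Genes with few counts have less certain fold changes (ABHD1, at 7.622 with DMSO, had an SE of 0.574). The 38 are thus set beside an unlike set here and below, and genes of like level were not compared. The values ran from -0.58 (IDI1) to 0.88 (FADS2). None of the 38 exceeded a log2 fold change of 1 in size by limma, edgeR or DESeq2, the count being 0 also where an unadjusted p under 0.05 was used, beside 8.04% of all genes tested by limma, 8.17% by edgeR and 7.5% by DESeq2. FADS2 was at the 92.1 percentile of the log2 fold changes of all genes and IDI1 at the 10.8 percentile. As these are bulk libraries, fewer cells that express a gene and less RNA per cell cannot be told apart.

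**Figure D1:**
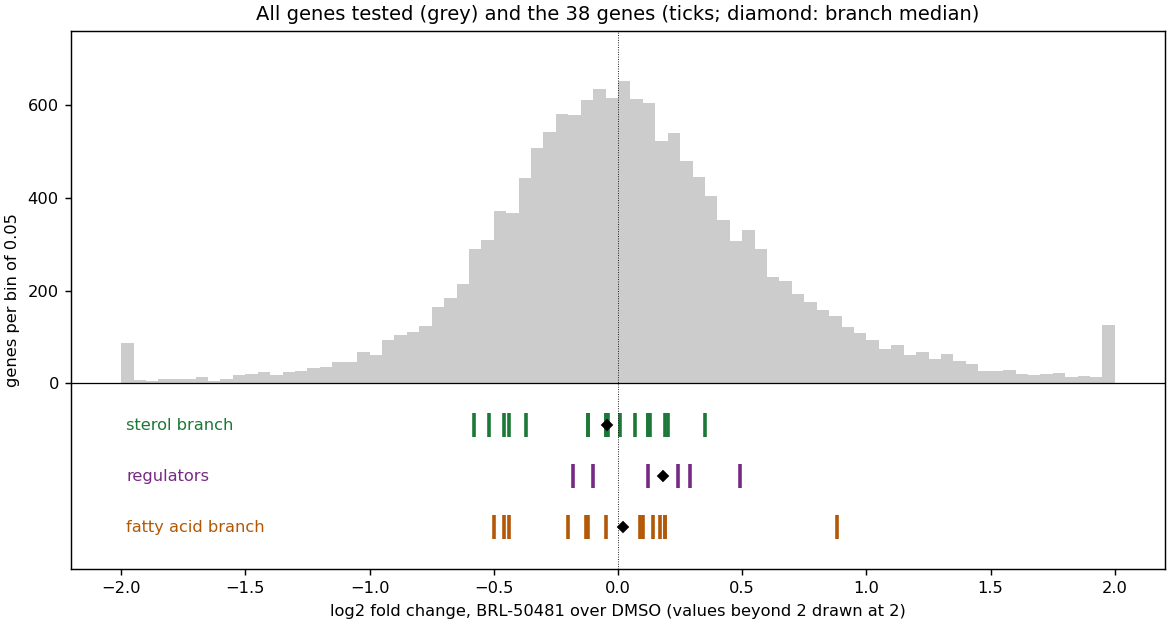
Histogram of the log2 fold change (BRL-50481 over DMSO) of the 15246 genes tested, in bins of 0.05, with the 38 genes as ticks in 3 rows by branch and the branch median as a diamond. The ticks lie on both sides of 0 in each row, with medians of -0.044 for the sterol branch, 0.18 for the regulators and 0.022 for the fatty acid branch.

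By branch, the counts were as follows, with no test between branches. In the sterol branch 3 of 18 rose and 5 fell (44.4% called), and among regulators 3 of 6 rose and 1 fell (66.7%). In the fatty acid branch 4 of 14 rose and 6 fell (71.4%). Beside these, 58.7% of all genes tested were called, 28.9% higher and 29.8% lower. The median log2 fold change was -0.044 in the sterol branch, 0.18 among regulators and 0.022 in the fatty acid branch. These medians are descriptions without a test. The sign of the sterol median turned to 0.0097 after quantile normalization, and that of the fatty acid median turned to -0.1 after removal of the length and GC trend, while the regulators' median was positive under each scaling tried (0.11 to 0.23). By library, the mean log2 level of the 6 regulators relative to the DMSO mean was -0.011 to 0.017 with DMSO and 0.121 to 0.167 with BRL-50481. For the 18 sterol genes it was -0.057 to 0.033 with DMSO and -0.102 to -0.073 with BRL-50481, and for the 14 fatty acid genes the groups overlapped, at -0.028 to 0.042 and -0.022 to -0.001. The median over the genes in each library separated the groups for the regulators only. For the sterol genes it overlapped, at -0.044 to 0.021 with DMSO and -0.106 to 0.022 with BRL-50481. The lower sterol means therefore do not show a shift of the whole branch.

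**Figure D2:**
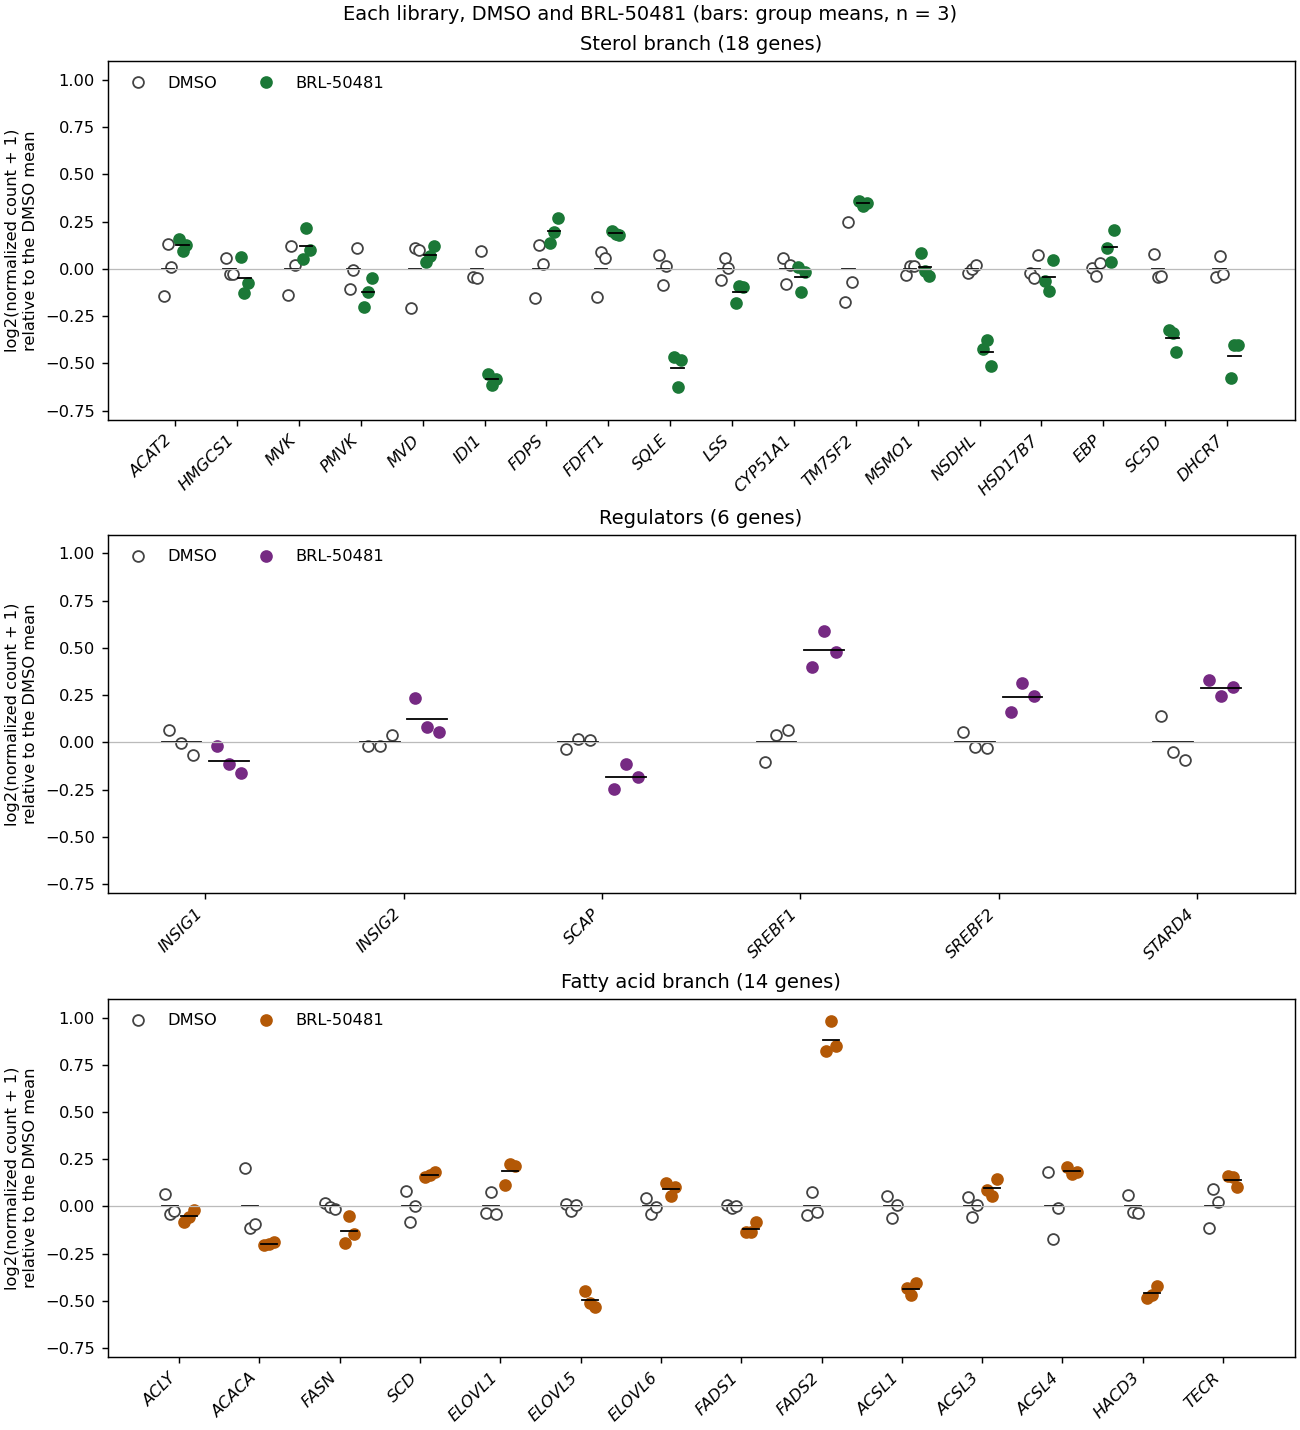
The log2(normalized count + 1) of each library relative to the DMSO mean of the gene, for the 38 genes in 3 panels by branch, with DMSO as open circles, BRL-50481 as filled circles and group means as bars (n = 3). IDI1, SQLE, NSDHL, SC5D, DHCR7, ELOVL5, ACSL1 and HACD3 lie well below their DMSO circles, SREBF1 and FADS2 well above, and many others sit among or next to them.

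In the sterol branch, the first steps from acetyl-CoA to mevalonate diphosphate gave no gene that passed the test. ACAT2, which joins 2 acetyl-CoA, had a log2 fold change of 0.13 (95% CI -0.03 to 0.29), and HMGCS1, the synthase of HMG-CoA, had -0.05 (-0.2 to 0.11). The kinases MVK and PMVK, which phosphorylate mevalonate in turn, had 0.12 (-0.09 to 0.33) and -0.12 (-0.29 to 0.04). MVD, which makes isopentenyl diphosphate by decarboxylation, had 0.07 (-0.13 to 0.27). The intervals of these 5 genes together span -0.29 to 0.33. Leaving out DMSO 1 brought PMVK to a call (-0.18, adjusted p = 0.0236 in a range of 0.0236 to 0.602 over the 17 alternatives), and leaving out DMSO 2 brought ACAT2 to a call (0.19, adjusted p = 0.0298 in a range of 0.0233 to 0.437). MVD was at -0.03 without DMSO 1 (not called). Once the length and GC trend was removed, MVD (0.19, adjusted p = 0.0158, range 0.0158 to 0.762), HMGCS1 (-0.18, 0.00886, range 0.00886 to 0.96) and ACAT2 (0.15, 0.0233) passed.

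The next enzymes moved in opposite directions. IDI1, the isomerase that turns isopentenyl into dimethylallyl diphosphate, had normalized counts of 1995, 1986 and 2194 with DMSO and 1398, 1344 and 1372 with BRL-50481. All 3 treated libraries were below all 3 controls, and the gene fell by 0.58 on the log2 scale (SE 0.0594, adjusted p = 2.7e-06), the strongest fall among the 38. FDPS, the farnesyl diphosphate synthase that uses the product of IDI1, had 2269, 2761 and 2573 with DMSO and 2776, 2891 and 3040 with BRL-50481. The lowest treated library was just above DMSO 2, and the log2 fold change was 0.2 (SE 0.0698, adjusted p = 0.0255). The call of FDPS was lost without BRL-50481 2 (adjusted p = 0.0716) or without BRL-50481 3 (0.116), in a range of 5.84e-05 to 0.116 over the alternatives, and the log2 fold change was 0.12 without DMSO 1. Per kilobase of transcript, the level of IDI1 was 0.423 ± 0.0444 of that of FDPS with DMSO and 0.245 ± 0.0141 with BRL-50481 (SD, n = 3). This ratio was lower in every treated library than in every control, which gives the smallest p that 3 against 3 allows (exact permutation test, two-sided, p = 0.1). Like the ratios below, it was chosen with these values known, so this p describes the separation only.

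At squalene, both enzymes passed the test with opposite signs. FDFT1, squalene synthase, had normalized counts of 1723, 2032 and 1985 with DMSO and 2193, 2165 and 2162 with BRL-50481. The treated libraries lay close together above the controls, of which DMSO 1 was the lowest, and the log2 fold change was 0.19 (SE 0.0653, adjusted p = 0.0248). SQLE, squalene epoxidase, a rate-limiting oxygenase of the pathway, had 937, 840 and 902 with DMSO and 646, 578 and 638 with BRL-50481. The groups were far apart, and SQLE fell by 0.52 on the log2 scale (SE 0.0748, adjusted p = 5.13e-05). The call of FDFT1 was lost without any 1 of the BRL-50481 libraries (adjusted p of 0.0809, 0.0687 and 0.0673 without BRL-50481 1, 2 and 3, and up to 0.0835 over the alternatives) and its log2 fold change was 0.11 without DMSO 1, whereas that of SQLE held in all 17 alternatives.

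LSS, which closes the ring to lanosterol and had the highest mean count of the sterol branch with DMSO (with BRL-50481 it was FDPS), was at 2839, 3083 and 2968 with DMSO and 2610, 2780 and 2773 with BRL-50481. The groups did not overlap, yet the log2 fold change of -0.12 (95% CI -0.24 to -0.01) missed the threshold (limma, adjusted p = 0.0666). It passed without DMSO 1 (adjusted p = 0.00394, in a range of 0.000516 to 0.336). CYP51A1, the lanosterol demethylase, had -0.04 (-0.17 to 0.09), and MSMO1, the methylsterol oxidase, had 0.01 (-0.11 to 0.13). HSD17B7, a ketosteroid reductase of the same demethylation series, had -0.05 (-0.26 to 0.17), and EBP, the sterol isomerase, had 0.12 (-0.02 to 0.26). These 4 enzymes did not pass the test. Exons of CYP51A1 and EBP overlap unnamed genes on the same strand, so their counts are less certain. In the fatty acid branch, ELOVL1 (with MIR6734), FADS1 (MIR1908), TECR (MIR639) and ACSL4 (KCNE5) also have such an overlap, with the same limit.

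TM7SF2, a sterol reductase, had normalized counts of 241, 323 and 259 with DMSO and 350, 343 and 347 with BRL-50481. The treated libraries agreed within an SD of 3.43 and were above the controls, which spread with an SD of 43.1, and the log2 fold change was 0.35 (SE 0.111, adjusted p = 0.0159). An exon of TM7SF2 overlaps VPS51 on the same strand, which rose from 1063 ± 120 to 1646 ± 29.9 (SD, n = 3), and reads of the overlap cannot be told apart. The call of TM7SF2 was lost without DMSO 3 (adjusted p = 0.0554) or BRL-50481 1 (0.0548), in a range of 0.000514 to 0.0554. NSDHL, which removes the carboxyl group left by MSMO1, had 831, 844 and 857 with DMSO and 628, 650 and 590 with BRL-50481. Its controls were tightly grouped and all treated libraries were below them, with a fall of 0.44 (log2, SE 0.0691, adjusted p = 0.000116).

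Among the last desaturation and reduction steps, the genes SC5D and DHCR7 fell. SC5D, the lathosterol desaturase, had normalized counts of 2192, 2012 and 2022 with DMSO and 1657, 1637 and 1530 with BRL-50481, and fell by 0.37 on the log2 scale (SE 0.0596, adjusted p = 0.000152). DHCR7, which reduces the product of SC5D to cholesterol, had 2649, 2864 and 2684 with DMSO and 1828, 2062 and 2066 with BRL-50481, and fell by 0.46 (SE 0.0621, adjusted p = 3.09e-05). The groups did not overlap for either gene, and both calls held in all 17 alternatives. From squalene synthase on, 2 of 11 genes rose and 4 fell (54.5% called). Before it, 1 of 7 rose and 1 fell (28.6%), beside 58.7% of all genes tested. The 5 sterol genes that fell were thus an isomerase, an oxygenase, a decarboxylating dehydrogenase, a desaturase and a reductase, spread over the pathway between calls that rose and genes that did not pass.

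**Figure D3:**
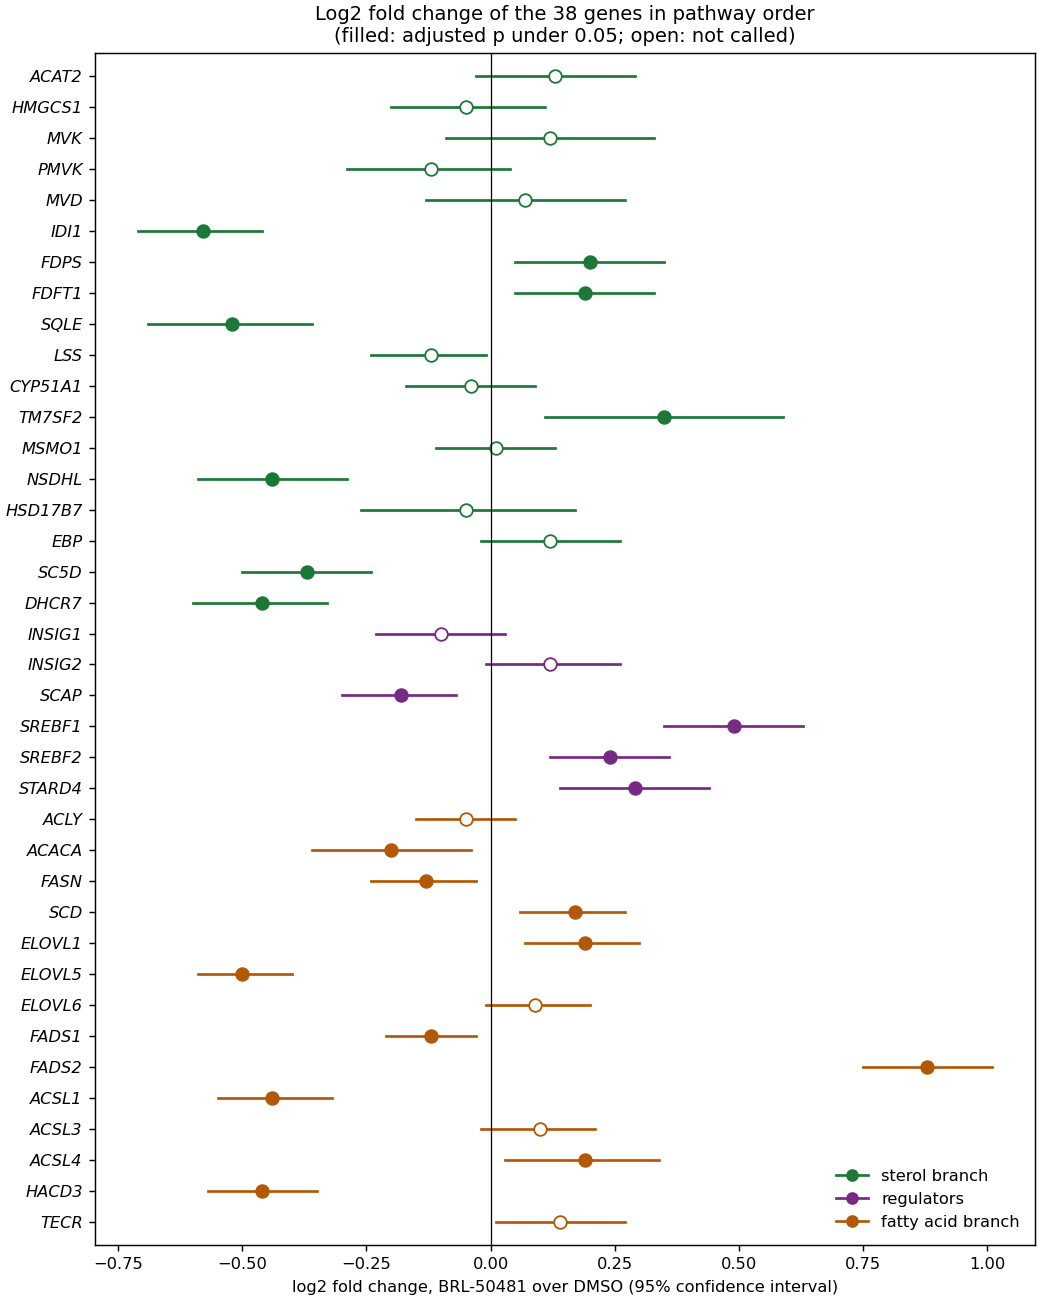
Log2 fold change (BRL-50481 over DMSO) of the 38 genes in pathway order, with 95% confidence intervals, filled where the adjusted p was under 0.05 and open otherwise. The points lie on both sides of 0 along the sterol branch, from -0.58 for IDI1 to 0.35 for TM7SF2, and FADS2 stands apart at 0.88.

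Among the regulators, both genes of the SREBPs rose while SCAP, the gene of their escort protein, fell. SREBF1 had normalized counts of 2378, 2630 and 2684 with DMSO and 3377, 3854 and 3570 with BRL-50481. Every treated library was above every control, and SREBF1 was 1.4-fold higher (log2 0.49, SE 0.0638, adjusted p = 2.38e-05). SREBF2, the most abundant regulator by count and per kilobase, had 3850, 3646 and 3622 with DMSO and 4140, 4613 and 4397 with BRL-50481. It was 1.18-fold higher with no overlap (log2 0.24, SE 0.0542, adjusted p = 0.00186). Per kilobase, SREBF1 stood at 0.741 ± 0.0708 of SREBF2 with DMSO and at 0.877 ± 0.0134 with BRL-50481, a ratio higher in all 3 treated libraries (exact permutation test, two-sided, p = 0.1, the smallest possible). The counts are per gene and do not separate the transcripts for SREBP-1a and SREBP-1c.

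STARD4, a sterol transfer protein and a known SREBP target, had normalized counts of 1424, 1249 and 1213 with DMSO and 1627, 1531 and 1581 with BRL-50481. It was higher in all treated libraries (log2 0.29, SE 0.0687, adjusted p = 0.00275). SCAP, the sterol sensor that escorts SREBPs, had 2681, 2783 and 2770 with DMSO and 2310, 2534 and 2414 with BRL-50481. Its groups did not overlap and it fell by 0.18 on the log2 scale (SE 0.0539, adjusted p = 0.0104). The call of SCAP was lost without BRL-50481 1 (adjusted p = 0.0599) and after quantile normalization (0.0689), in a range of 0.00011 to 0.0689, whereas those of SREBF1, SREBF2 and STARD4 held in all 17 alternatives, SREBF2 at 0.15 and STARD4 at 0.18 (log2) once the length and GC trend was removed. Per kilobase, SREBF2 was at 1.1 ± 0.0596 times SCAP with DMSO and 1.47 ± 0.0138 times with BRL-50481.

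The INSIG genes, whose proteins retain SCAP in the endoplasmic reticulum, did not pass the test. INSIG1, itself a target of SREBPs, had normalized counts of 1844, 1759 and 1683 with DMSO and 1735, 1629 and 1572 with BRL-50481, with overlapping groups (log2 -0.1, 95% CI -0.23 to 0.03, adjusted p = 0.18). INSIG2 had 1795, 1797 and 1868 with DMSO and 2141, 1926 and 1892 with BRL-50481, higher in every treated library (log2 0.12, 95% CI -0.01 to 0.26, adjusted p = 0.096). INSIG2 passed after quantile normalization (adjusted p = 0.0297) and median centring (0.047), in a range of 0.0297 to 0.38. Per kilobase, INSIG2 was at 0.845 ± 0.0564 of INSIG1 with DMSO and 0.985 ± 0.0214 with BRL-50481, without overlap (exact permutation test, two-sided, p = 0.1, the smallest possible).

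In the fatty acid branch, ACACA and FASN fell and ACLY did not pass among the early enzymes. ACLY, which makes cytosolic acetyl-CoA from citrate, had 10855 ± 438 normalized counts with DMSO and 10473 ± 226 with BRL-50481 (SD, n = 3) and did not pass (log2 -0.05, 95% CI -0.15 to 0.05). ACACA, the carboxylase that makes malonyl-CoA, had 4767, 3826 and 3886 with DMSO and 3595, 3601 and 3629 with BRL-50481. DMSO 1 was well above the rest, and the log2 fold change of -0.2 (SE 0.0729, adjusted p = 0.0323) became -0.1 without it. FASN, the fatty acid synthase, had 8745, 8596 and 8546 with DMSO and 7530, 8330 and 7800 with BRL-50481. It was lower in all treated libraries, by 0.13 (SE 0.0487, adjusted p = 0.0338). The call of ACACA was lost without BRL-50481 1 (adjusted p = 0.0948), 2 (0.0898) or 3 (0.0761), and that of FASN without DMSO 3 (0.0778) or BRL-50481 1 (0.157) or 3 (0.12), with adjusted p of up to 0.134 and 0.157 over the alternatives. With the length and GC trend removed, ACACA was at -0.43 and FASN at -0.24.

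The elongation cycle moved in both directions. ELOVL5, an elongase of polyunsaturated fatty acids and the most abundant of the 38 per kilobase, had normalized counts of 12276, 11966 and 12217 with DMSO and 8899, 8540 and 8407 with BRL-50481. The gap between the groups was far wider than either group, and ELOVL5 fell by 0.5 on the log2 scale (SE 0.0442, adjusted p = 8.51e-07). HACD3, a dehydratase of the same cycle, had 5502, 5170 and 5148 with DMSO and 3761, 3805 and 3940 with BRL-50481. It fell by 0.46 without overlap (SE 0.0493, adjusted p = 4.34e-06). ELOVL1, an elongase of saturated and monounsaturated very long chains, had 3506, 3792 and 3504 with DMSO and 3899, 4204 and 4178 with BRL-50481. It was higher in every treated library (log2 0.19, SE 0.0539, adjusted p = 0.00968), but its call was lost without DMSO 3 (adjusted p = 0.0506), BRL-50481 2 (0.0533) or BRL-50481 3 (0.0536), in a range of 6.74e-05 to 0.0536. Per kilobase, ELOVL1 stood at 0.559 ± 0.0334 of ELOVL5 with DMSO and at 0.897 ± 0.0617 with BRL-50481 (exact permutation test, two-sided, p = 0.1, the smallest possible).

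ELOVL6, which elongates palmitate, and TECR, the reductase that ends the cycle, did not pass the test. ELOVL6 had a log2 fold change of 0.09 (95% CI -0.01 to 0.2), and its value ran from -0.07 with the length and GC trend removed to 0.15 after quantile normalization. TECR had 0.14 (0.01 to 0.27, adjusted p = 0.0603). Both had non-overlapping groups. ELOVL6 passed without DMSO 1 (adjusted p = 0.0199, range 0.0178 to 0.281) and TECR without DMSO 2 (0.0169, range 0.000107 to 0.162).

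The neighbouring desaturase genes moved in opposite directions. FADS2, the first desaturase of polyunsaturated fatty acid synthesis, had normalized counts of 1779, 1934 and 1798 with DMSO and 3243, 3622 and 3308 with BRL-50481. Every treated library was well above every control, and FADS2 was 1.84-fold higher (log2 0.88, SE 0.0597, adjusted p = 8.06e-08), the strongest rise among the 38. FADS1, its neighbour on chromosome 11 and the next desaturase of the same route, had 8542, 8439 and 8526 with DMSO and 7743, 7727 and 8021 with BRL-50481. It was lower in all treated libraries, by 0.12 on the log2 scale (SE 0.0435, adjusted p = 0.0309). Per kilobase, FADS2 stood at 0.305 ± 0.0161 of FADS1 with DMSO and at 0.612 ± 0.0436 with BRL-50481 (exact permutation test, two-sided, p = 0.1, the smallest possible). Both genes are annotated on hg38 chromosome 11, FADS1 at chr11:61799627-61829318 on the minus strand and FADS2 at chr11:61792980-61867354 on the plus strand. FEN1, a nuclease gene whose exon overlaps FADS2 on the same strand, fell from 3257 ± 68.9 to 1709 ± 54.8 normalized counts (SD, n = 3), opposite to FADS2, and reads of the overlap cannot be told apart.

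The call of FADS1 was lost without DMSO 3 (adjusted p = 0.0992), BRL-50481 1 (0.0976), BRL-50481 2 (0.107) or BRL-50481 3 (0.0612), in a range of 2.06e-05 to 0.107, and its value was -0.21 with the length and GC trend removed, whereas the call of FADS2 held in all 17 alternatives. SCD, the desaturase that makes oleate and palmitoleate, had normalized counts of 10642, 9490 and 10090 with DMSO and 11198, 11288 and 11427 with BRL-50481. The treated libraries lay close together above the controls (log2 0.17, SE 0.0495, adjusted p = 0.0104). The call of SCD was lost without BRL-50481 3 (adjusted p = 0.0522), and its value was 0.04 once the length and GC trend was removed (adjusted p = 0.176, range 4.18e-06 to 0.176).

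The acyl-CoA synthetases, which activate long-chain fatty acids, also split. ACSL1, which serves lipid synthesis and oxidation, had normalized counts of 3715, 3435 and 3596 with DMSO and 2650, 2588 and 2703 with BRL-50481. The groups were far apart and ACSL1 fell by 0.44 on the log2 scale (SE 0.0516, adjusted p = 1.01e-05). ACSL4, which prefers arachidonic acid, had 8334, 6525 and 7300 with DMSO and 8508, 8265 and 8340 with BRL-50481. DMSO 1 lay within the treated range, so the groups overlapped although the log2 fold change of 0.19 passed (SE 0.0711, adjusted p = 0.0365). That call was lost without DMSO 2 (log2 0.1, adjusted p = 0.148), DMSO 3 (0.0911), BRL-50481 1 (0.12), BRL-50481 2 (0.0821) or BRL-50481 3 (0.0858), in a range of 9.66e-08 to 0.152. The log2 fold change of ACSL4 was 0.28 without DMSO 1 and 0.07 with the length and GC trend removed. ACSL3, found on lipid droplets, had 0.1 (95% CI -0.02 to 0.21) and did not pass, but passed without DMSO 1 (adjusted p = 0.0153, range 0.0153 to 0.38). Per kilobase, ACSL4 was at 1.56 ± 0.132 times ACSL1 with DMSO and 2.4 ± 0.0518 times with BRL-50481 (exact permutation test, two-sided, p = 0.1, the smallest possible).

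The 7 ratios given per kilobase (FADS2 to FADS1, ACSL4 to ACSL1, INSIG2 to INSIG1, ELOVL1 to ELOVL5, SREBF1 to SREBF2, IDI1 to FDPS and SREBF2 to SCAP) were chosen with these values known, and each reached the same smallest p of 0.1, so none can pass 0.05. Their differences on the log2 scale were 1 for FADS2 to FADS1, -0.78 for IDI1 to FDPS, 0.68 for ELOVL1 to ELOVL5 and 0.62 for ACSL4 to ACSL1. The other 3 were 0.42 for SREBF2 to SCAP, 0.25 for SREBF1 to SREBF2 and 0.22 for INSIG2 to INSIG1.

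The levels per kilobase of transcript spanned 107 (MVK) to 4400 (ELOVL5) normalized counts with DMSO. The top of the order belonged to fatty acid genes, with ACLY at 2530, ELOVL1 at 2460, TECR at 1990, FADS1 at 1950 and SCD at 1920 per kilobase with DMSO, neighbours that lie close together. FDPS was the highest sterol gene at 1790, and MVK, HSD17B7 (166) and TM7SF2 (174) were the lowest of the 38. In BRL-50481 ELOVL5 kept rank 1 at 3120, while FADS2 went from rank 25 (594) to rank 10 (1100). IDI1 went from rank 17 (751) to rank 28 (501), and DHCR7 from rank 10 (1040) to rank 18 (756). The lengths are those of the GENCODE canonical transcripts, which may not be the transcripts these cells use.

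**Figure D4:**
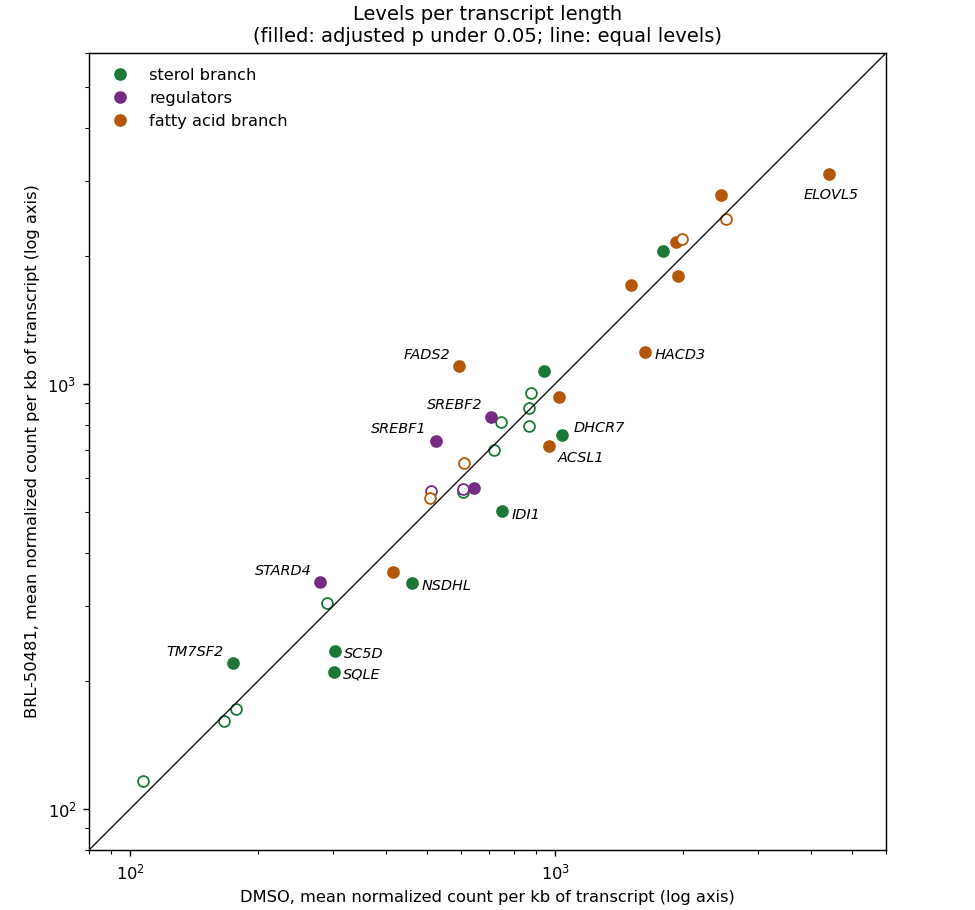
Mean level per kilobase of transcript (normalized counts per kb, both axes log) of the 38 genes with DMSO (horizontal) and with BRL-50481 (vertical), filled where the adjusted p was under 0.05, with a line of equal levels. ELOVL5 is the highest with either (4400 and 3120), FADS2 (594 and 1100) lies above the line, and IDI1 (751 and 501) and DHCR7 (1040 and 756) lie below it.

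Of 44 further genes listed for these pathways, 42 were tested, and 15 rose and 13 fell (66.7% called, beside 58.7% of all genes), with a median log2 fold change of -0.027. In further sterol synthesis 2 of 6 rose and 2 fell, in sterol uptake, storage and efflux 4 of 14 rose and 5 fell, in SREBP processing 2 of 4 rose and 1 fell, and in further fatty acid metabolism 7 of 18 rose and 5 fell.

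MYLIP, a ubiquitin ligase that limits sterol uptake, fell by 0.8 on the log2 scale (adjusted p = 1.69e-07). The proteases that cut SREBPs in the Golgi both rose, MBTPS1 by 0.48 (adjusted p = 1.83e-06) and MBTPS2 by 0.71 (adjusted p = 4.01e-06). ABCA1, a cholesterol exporter, rose by 0.69 (adjusted p = 6.54e-05), and SCARB1, a receptor for high-density lipoprotein, fell by 0.63 (adjusted p = 1.92e-06).

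Among fatty acid genes outside the 38, ACACB, the mitochondrial acetyl-CoA carboxylase, rose by 0.77 on the log2 scale (adjusted p = 0.000911), opposite in sign to ACACA. MCAT, which loads malonate in mitochondrial fatty acid synthesis, fell by 0.53 (adjusted p = 0.00425). HACD2, a dehydratase of the elongation cycle, rose by 0.51 (adjusted p = 0.0138), opposite in sign to HACD3, but its groups overlapped and its call was lost without DMSO 3 or BRL-50481 1, with an adjusted p of up to 0.0884 over the alternatives. The calls of MYLIP, MBTPS1, MBTPS2, ABCA1, SCARB1, ACACB and MCAT held in all 17 alternatives.

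**Figure D5:**
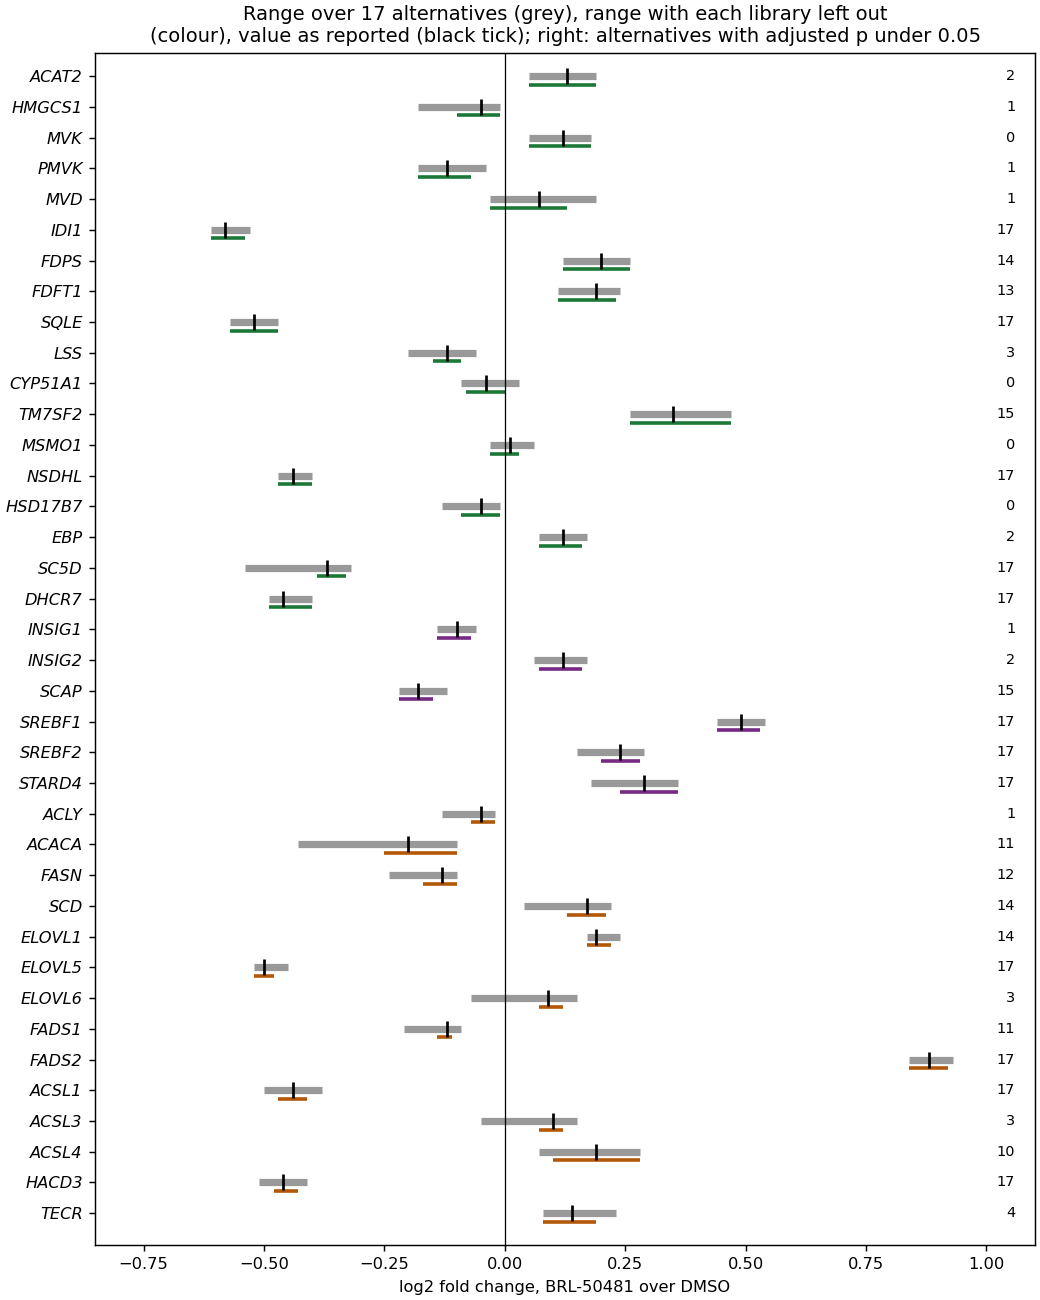
Range of the log2 fold change of each of the 38 genes over 17 alternative settings (grey) and over the 6 fits that leave out 1 library (colour), with the value as reported as a black tick and the number of alternatives with an adjusted p under 0.05 at the right. Of the 22 called genes, 12 stand at 17, among them IDI1 (-0.61 to -0.53) and FADS2 (0.84 to 0.93).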

How the data were processed

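RNA had been sequenced from 3 DMSO and 3 BRL-50481 libraries, grouped by their labels. Per the labels and the study's methods, the authors purified mRNA with oligo-dT, prepared dUTP-stranded libraries, aligned reads to hg38 with STAR (2.7.1a), counted them by gene of the UCSC annotation (htseq-count, reverse strand) and normalized with DESeq2 (1.28). The series record speaks of ribosomal depletion instead. The signal the authors deposited per gene and sample is a read count scaled by a size factor. Within each library 100% of these deposited values were whole multiples of 1 read (tolerance 0.01 read), so read counts were recovered by division. The deposited mean signal, log2 fold change, its standard error, test statistic (a score) and p-values, as they stand and adjusted, hold the authors' own comparison and were not used. Every per-sample column was used.

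Genes reaching a normalized count of 4 in 3 or more samples were kept (405 failed). log2(normalized count + 1) was fitted with limma (3.58.1, R 4.3.3, eBayes with a trend) with group as the only term, with Benjamini-Hochberg adjustment over 15246 genes and a call at an adjusted p under 0.05. A fold change on this scale understates that of low genes. Alternatives were a pseudocount of 0.5 or of 4, fitting without the filter, a mean of at least 20, quantile normalization, median centring, no trend, edgeR (4.0.16) and DESeq2 (1.42.0) on recovered reads, a replicate block, each library left out, and removal of a trend with length and GC content, the last chosen after seeing the data. Lengths and GC content came from GENCODE 44 (14216 genes matched by symbol, 917 by an older symbol). Exon overlaps were also read from GENCODE 44, not from the UCSC annotation used for counting. How the authors' counting treated reads in an overlap was not examined. Levels per kilobase are mean normalized counts divided by transcript length. The fit was tested on simulated data. All 38 genes are named. Values per library are given for regulators, for genes that passed the test and for the most abundant of each branch. Further pathway genes are named if called with a log2 fold change of at least 0.5 in size and a mean of at least 50, along with MBTPS1 and MBTPS2 whatever their value, and some results of that rule are not reported here. LSS, FEN1 and VPS51 and the values of genes gained or lost were added after values were seen. The genes and lists were chosen with earlier results of these data known, and the motifs with the windows in view.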

Additional observations from a re-analysis of the deposited data

How the results depend on the processing

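Of the 22 calls among the 38 genes, 12 held in all 17 alternatives (IDI1, SQLE, NSDHL, SC5D, DHCR7, SREBF1, SREBF2, STARD4, ELOVL5, ACSL1, HACD3 and FADS2), and each of the other 10 was lost when some library was left out. No called gene changed sign, while the uncalled MVD, CYP51A1, MSMO1, ELOVL6 and ACSL3 did in at least 1 alternative. Of the 16 not called, 12 passed in at least 1 alternative and 4 (MVK, CYP51A1, MSMO1 and HSD17B7) in none. Both other pseudocounts, no filter, a mean of at least 20, edgeR and DESeq2 gave 10 higher and 12 lower. Without the trend limma gave 6 higher and 9 lower (FDPS, FDFT1, ACACA, FASN, SCD, FADS1 and ACSL4 lost), and with a log2 fold change over 1 in size as a further condition 0 higher and 0 lower, where the cause is that condition. Leaving out 1 library gave 5 to 12 higher and 8 to 14 lower, with 5 higher without BRL-50481 3, 6 without BRL-50481 2 and 8 lower without BRL-50481 1. The same fits gave medians of -0.065 to -0.004 for the sterol branch, 0.17 to 0.2 for the regulators and -0.0021 to 0.033 for the fatty acid branch. Median centring lost ACACA, FASN and FADS1 and quantile normalization lost SCAP and ACACA. After quantile normalization the medians were 0.0097, 0.23 and 0.066. After removal of the length and GC trend those of the regulators and the fatty acid branch were 0.11 and -0.1, SCD and ACSL4 lost their calls, and ACAT2, HMGCS1, MVD, LSS, EBP, INSIG1, ACLY and TECR gained them. The cause of these shifts was not tested. The replicate block gave 10 higher and 13 lower, LSS being the gain (adjusted p = 0.0472). Libraries with the same number correlated at 0.12, 0.1 and 0.05, and those with different numbers at -0.16 to 0.06. BRL-50481 3 was at 0.06 with DMSO 2 and at 0.05 with DMSO 3. These small values do not settle whether a shared number marks a pair. The number of libraries, 3 a group, limits the precision of each value as its interval shows, and an uncalled gene is not shown to be unchanged.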
